A study of Rattus norvegicus with 24 samples.

Results

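The genes described here are 10 that make, cut and store insulin in the beta cell: Ins1, Ins2, Iapp, Pcsk1, Pcsk2, Cpe, Scg5, Chga, Chgb and Slc30a8. They were followed as log2 intensity across all 8 groups of the series, through every probe set annotated to them. Of the 10 genes, 8 had a named probe set, 1 each, among 14217 genes measured in all, and Pcsk1 and Slc30a8 were not named in the annotation used here.

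Expression was measured on 24 single-colour Affymetrix arrays of INS-1E cells, a rat insulinoma line that makes insulin, with 3 arrays in each group. Cells received cytokines with 10 µM BRD0476, cytokines with the vehicle DMSO, BRD0476 alone, or DMSO alone, each for 6 h and for 12 h. The cytokines were IL-1beta at 10 ng/ml, IFN-gamma at 50 ng/ml and TNF-alpha at 25 ng/ml. BRD0476 is a small molecule known as a suppressor of cytokine-induced beta-cell death. All groups share 1 tumour-derived line and 1 culture medium, and the labels do not say whether the 3 arrays of a group came from separate cultures, so every p-value here speaks of the spread among these arrays, which may be technical. Over 3 arrays against 3, an exact permutation test cannot go below 0.1, and tests are therefore from a fit across all genes.

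Insulin is made as a precursor that folds in the endoplasmic reticulum, enters secretory granules and is cut there by the prohormone convertases encoded by Pcsk1 and Pcsk2, after which carboxypeptidase E, from Cpe, trims the cut ends. Rats carry a pair of insulin genes, and Ins1 arose as a retroposed copy of Ins2. Iapp encodes amylin, a hormone that shares the granule with insulin. Scg5 encodes the chaperone that the Pcsk2 enzyme needs to mature, Chga and Chgb encode chromogranins, acidic proteins of the granule core, and Slc30a8 encodes the transporter that loads zinc into the granule.

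The start regions of the 3 hormone genes are shown because the hormone genes are those that most results turn on, and because Ins1 and Ins2 are near copies. Each runs 300 bases on GRCr8 from RefSeq, from 250 before to 50 after the annotated start, and capitals mark TAAT, the core of the A box, and CANNTG, the E box, on either strand.
Ins1, chr1:261185869-261186168, plus strand: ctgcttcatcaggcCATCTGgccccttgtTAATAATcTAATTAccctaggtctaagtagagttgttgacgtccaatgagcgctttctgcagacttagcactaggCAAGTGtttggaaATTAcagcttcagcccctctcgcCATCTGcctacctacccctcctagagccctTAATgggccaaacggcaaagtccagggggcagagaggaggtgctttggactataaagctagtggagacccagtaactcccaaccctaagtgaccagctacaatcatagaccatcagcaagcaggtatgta
Ins2, chr1:207273756-207274055, minus strand: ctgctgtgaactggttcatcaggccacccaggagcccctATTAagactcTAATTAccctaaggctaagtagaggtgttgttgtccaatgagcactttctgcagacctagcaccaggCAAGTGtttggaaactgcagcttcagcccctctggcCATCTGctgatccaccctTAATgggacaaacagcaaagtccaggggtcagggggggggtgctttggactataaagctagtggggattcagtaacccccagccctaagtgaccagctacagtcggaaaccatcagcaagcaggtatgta
Iapp, chr4:176967847-176968146, plus strand: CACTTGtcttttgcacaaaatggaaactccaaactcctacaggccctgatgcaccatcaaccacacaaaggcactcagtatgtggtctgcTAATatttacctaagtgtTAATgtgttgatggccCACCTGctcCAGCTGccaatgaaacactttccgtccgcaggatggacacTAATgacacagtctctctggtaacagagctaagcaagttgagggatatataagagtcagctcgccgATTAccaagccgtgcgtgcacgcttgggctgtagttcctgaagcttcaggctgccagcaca

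A box matches numbered 6 in the Ins1 window, 4 in Ins2 and 4 in Iapp, and E box matches numbered 3, 2 and 3. Matches to TAAT overlap each other where TAATTA reads as the element on both strands and where TAATAAT holds it at both ends, and no E box overlapped an A box. Of 33469 promoters of the same length, 60.6% held TAAT and 72.1% held CANNTG, so either element is common in such a window. The Ins1 and Ins2 windows matched at 254 of 313 aligned columns, or 81.2%, and both carried TAAT 80 bases before the start. The Iapp window was 51.1% identical to Ins1 and 51.3% to Ins2. The 300 bases of Scg5 had 0 TAAT and 2 CANNTG. The STAT element TTCNNNGAA, searched on both strands and found in 8.87% of all promoters, had 0 matches in the 7 members that the promoter table held, which were these 4 and Pcsk2, Cpe and Chgb.

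The cells carried beta-cell markers at high levels: all 7 measured markers (Ins1, Ins2, Pdx1, Mafa, Slc2a2, Nkx6-1 and Iapp) lay above 5.52, the median log2 value of the table. Of 10 leukocyte markers 0 lay above it, of 7 fibroblast markers 1 did, of 5 endothelial markers 2 did, of 11 exocrine and ductal markers 1 did and of 8 markers of other islet cells 1 did, glucagon at a mean of 10.14. Single genes of these lists changed with cytokines in DMSO at 6 h, by the limma test 4 of 11 exocrine and ductal, 3 of 5 endothelial, 1 of 7 fibroblast, 1 of 8 other islet and 1 of 10 leukocyte markers. At 6 h the summed linear intensity of the exocrine and ductal list, led by Krt7, ranged from 3697 to 3888 with cytokines in DMSO and from 2427 to 2469 in DMSO alone, the endothelial list, led by Esam, from 229.8 to 251.1 and from 457.1 to 502.7, and the other islet list from 707.7 to 773.3 and from 1232 to 1492. The fibroblast list ranged from 125.1 to 142.2 with cytokines in DMSO and from 187.6 to 204.2 in DMSO alone, and the leukocyte list, with no marker above the table's median, from 196.4 to 213.5 and from 172.7 to 203.2, which overlap. Their part in the results was not tested. In bulk samples of this cell line, fewer cells with a given RNA cannot be told apart from less of that RNA per cell.

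A few arrays stood apart from others of their own group. The first component of the deviations from the group means held 32.8% of the within-group variance over all genes. On it, replicate 3 of cytokines with DMSO at 6 h scored -21.3 against 10.2 and 11.2 for replicates 1 and 2, replicate 3 of cytokines with DMSO at 12 h scored -21.5 against 9.59 and 11.9, and replicate 1 of cytokines with BRD0476 at 12 h scored -12.7 against 3.64 and 9.08. The second component held 14.4%, and its highest score was 15.4, in replicate 2 of DMSO alone at 6 h, where each of the 8 measured genes had the lowest value of its group. Some results that use the 3 arrays apart are given without them and with them as the only arrays of their groups. A result that uses these arrays and is given with all arrays only is not thereby free of them. Both settings were chosen after seeing the data. In the second setting a lone array is assumed to vary like the other groups.

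Most of these genes lay near the top of the intensity scale. Ins1 averaged 14.54 log2 units and was the brightest probe set on 22 of 24 arrays, never more than 0.061 below the top of the array. Its single arrays ran from 14.41 to 14.60. Ins2 ranked between 2 and 9 on an array, Iapp between 9 and 77, Chga between 26 and 95, Chgb between 32 and 65, Cpe between 38 and 56 and Scg5 between 70 and 181. Pcsk2 was dimmer, at a mean of 11.41 and ranks from 651 to 947. Among the 85 genes with a mean of at least 13, which include 7 of the 8, the median size of the cytokine change at 6 h in DMSO was 0.11, against 0.26 over all genes. By the limma test 49.4% of these 85 bright genes were called with cytokines in DMSO at 6 h and 32.9% at 12 h. With BRD0476 in cytokine-treated cells at 6 h 34.1% were called.

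**Figure D1:**
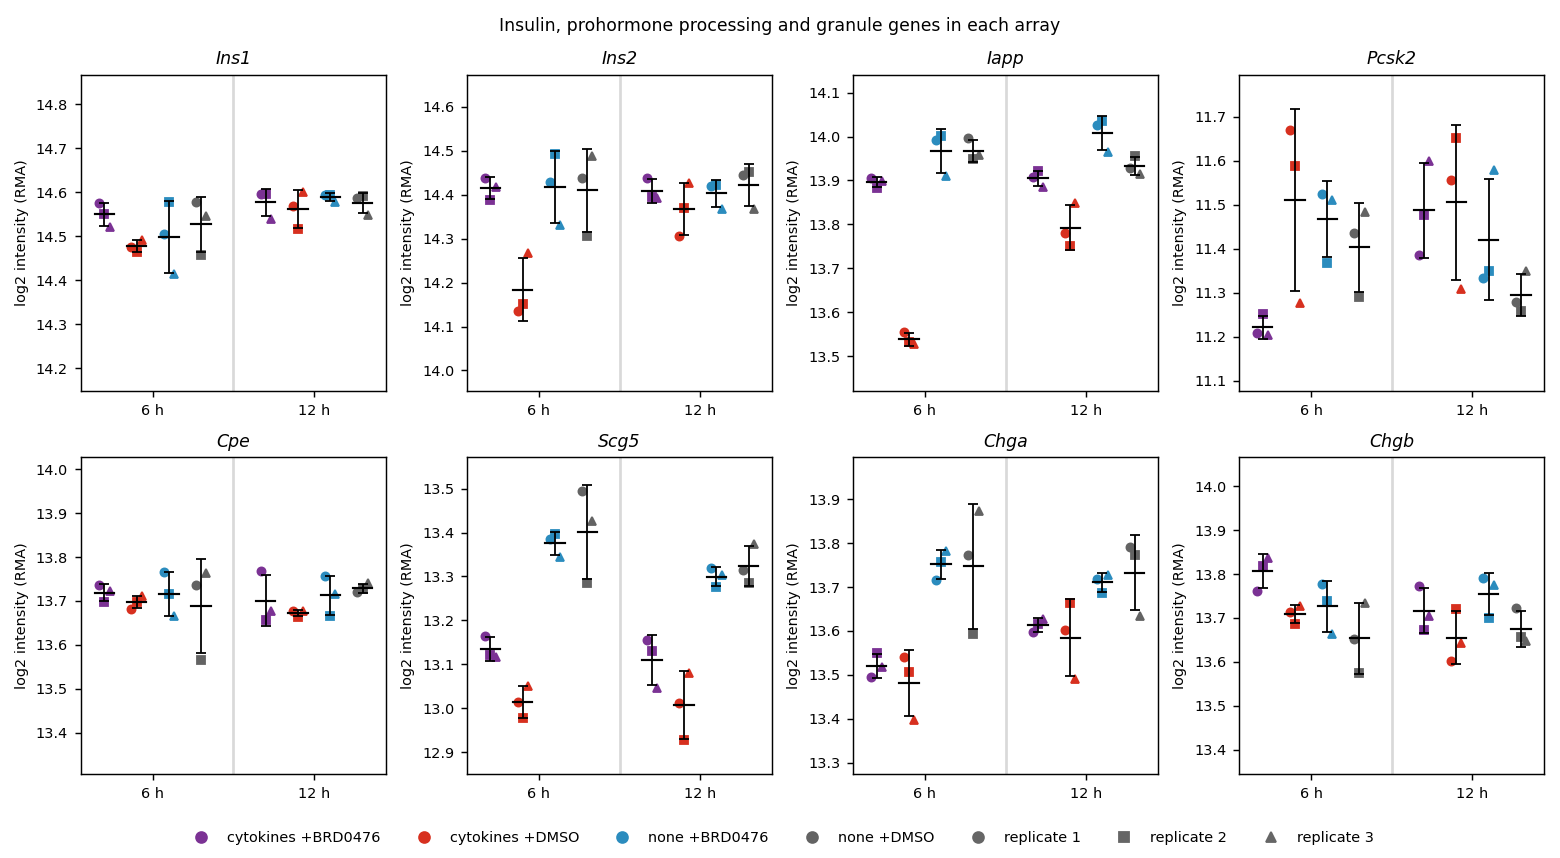
Log2 intensity of the 8 measured genes on every array, by treatment and time; symbols are replicates, bars the mean and SD of 3 arrays, and the vertical axes all span the same range. Iapp and Ins2 dip in cytokines with DMSO at 6 h, Scg5 and Chga lie lower in the cytokine groups, and Pcsk2 is split within the groups of cytokines with DMSO.

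Cytokines without BRD0476 lowered amylin, 1 of the insulin genes, the Pcsk2 chaperone and chromogranin A at 6 h. Of the 8 genes 4 fell and 0 rose at an adjusted p under 0.05 (limma, Benjamini-Hochberg over all genes), where 27.4% of all genes fell and 24.3% rose. The median change of the 8 was -0.14 and that of all genes 0.0039. The number of falls was 4 with any 1 of the 6 arrays left out, and 2 (Iapp and Scg5) in a fit of those 6 arrays alone, where Ins2 had an adjusted p of 0.0765 and Chga of 0.0637.

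Iapp, the amylin gene, had 13.56, 13.53 and 13.53 log2 units in cytokines with DMSO at 6 h, against 14.00, 13.95 and 13.96 in DMSO alone. The arrays of the cytokine group were almost equal and all lay well below the others. It fell by 0.43 ± 0.047 (SE, n = 3 arrays each, adjusted p = 1.08e-07), to 74.3% of the level in DMSO alone, with a 95% interval of 69.4% to 79.5%. Of the 85 bright genes, 5 had a lower change. Iapp fell by 0.42 without the 3 arrays that stood apart, and was called, and by 0.44 with them as the only arrays of their groups.

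Ins2 had 14.13, 14.15 and 14.27 in cytokines with DMSO at 6 h, against 14.44, 14.31 and 14.49 in DMSO alone. The groups did not overlap, although the highest cytokine array came within a short distance of the lowest in DMSO alone. Ins2 fell by 0.23 ± 0.060 (adjusted p = 0.00307), to 85.5% of the level in DMSO alone (95% interval 78.4% to 93.2%). It fell by 0.27 without the array that stood apart (adjusted p = 0.0015), and the change was -0.14 with that array alone (adjusted p = 0.198).

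Ins1, the retroposed copy, had 14.48, 14.46 and 14.49 in cytokines with DMSO at 6 h, against 14.58, 14.46 and 14.55 in DMSO alone. The groups overlapped through replicate 2 of DMSO alone. The change was -0.050 ± 0.052 (adjusted p = 0.458), with a 95% interval of -0.16 to 0.058, and Ins1 passed the test in 0 of the 13 comparisons made. How far its place at the top of the scale limits what could be seen of it was not tested. Whether each insulin probe set reads only its own gene was not tested, and the difference between the changes of Ins1 and Ins2 was not tested either.

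Scg5, the convertase chaperone, had 13.01, 12.98 and 13.05 in cytokines with DMSO at 6 h, against 13.49, 13.28 and 13.43 in DMSO alone. It fell by 0.39 ± 0.058 (adjusted p = 8.15e-06), to 76.4% of the level in DMSO alone (95% interval 70.2% to 83.1%). All cytokine arrays lay below all arrays of DMSO alone. Scg5 fell by 0.41 without the 3 arrays that stood apart, and was called, and by 0.35 with them as the only arrays of their groups. Pcsk2 itself, the enzyme that the chaperone serves, had 11.67, 11.59 and 11.28 in cytokines with DMSO at 6 h, against 11.44, 11.29 and 11.48 in DMSO alone, a change of 0.11 ± 0.10 (adjusted p = 0.396). Its 3 cytokine arrays spanned more than those of DMSO alone, with the array that stood apart at the bottom. Without the 3 arrays that stood apart Pcsk2 rose by 0.23 (adjusted p = 0.0263). With only replicate 3 of cytokines with DMSO at 6 h left out it was not called. With the 3 arrays as the only ones of their groups the change was -0.13.

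Chga, chromogranin A, had 13.54, 13.51 and 13.40 in cytokines with DMSO at 6 h, against 13.77, 13.59 and 13.87 in DMSO alone. The groups did not overlap, and the low array in DMSO alone was again replicate 2. Chga fell by 0.27 ± 0.068 (adjusted p = 0.00222), to 83.2% of the level in DMSO alone. It fell by 0.22 without the array that stood apart (adjusted p = 0.0131) and by 0.35 with it alone (adjusted p = 0.00815). Its relative Chgb, chromogranin B, changed by 0.056 ± 0.056 (adjusted p = 0.44), with arrays between 13.69 and 13.73 in cytokines with DMSO, against 13.57 to 13.74 in DMSO alone. Cpe, the trimming enzyme, changed by 0.0090 ± 0.055 (adjusted p = 0.91), and its arrays lay between 13.68 and 13.71 in cytokines with DMSO, against 13.57 to 13.76 in DMSO alone.

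**Figure D2:**
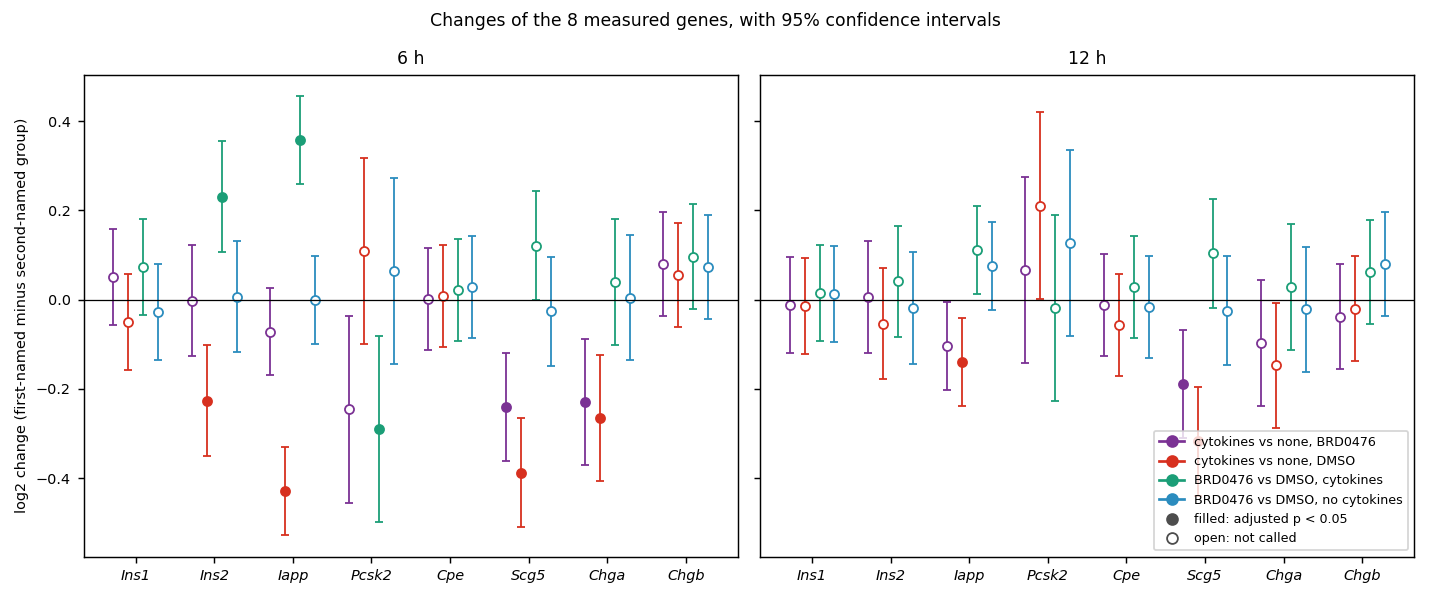
Log2 changes of the 8 genes at 6 h and 12 h, first-named minus second-named group, with 95% confidence intervals; filled points passed an adjusted p of 0.05. At 6 h cytokines in DMSO give falls of Iapp, Ins2, Scg5 and Chga, and BRD0476 in cytokine-treated cells gives rises of Iapp and Ins2 and a fall of Pcsk2. BRD0476 alone gives 0 filled points at either time.

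BRD0476 in the presence of cytokines raised both hormone genes that cytokines had lowered, amylin and Ins2, at 6 h. Of the 8 genes 2 rose and 1, Pcsk2, fell, where 24.7% of all genes rose and 19.4% fell. The number that rose was near that share. The median change of the 8 was 0.084, against 0.0034 over all genes. These comparisons share the arrays of cytokines with DMSO with the ones above, so a fall there and a rise here draw on the same 3 values.

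Iapp had 13.90, 13.88 and 13.90 in cytokines with BRD0476 at 6 h, against 13.56, 13.53 and 13.53 in cytokines with DMSO. The rise was 0.36 ± 0.047 (adjusted p = 2.34e-06), to 128% of the level in cytokines with DMSO (95% interval 120% to 137%), and 4 of the 85 bright genes had a higher change. Within each group the 3 arrays lay close together, and the groups were far apart. Measured against BRD0476 alone, at 13.99, 14.00 and 13.91, Iapp in cytokines with BRD0476 changed by -0.072 ± 0.047 (adjusted p = 0.339), an interval of -0.17 to 0.027. The interaction, the cytokine change with BRD0476 minus that with DMSO, was 0.36 ± 0.067 (adjusted p = 0.000253).

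Ins2 had 14.44, 14.39 and 14.42 in cytokines with BRD0476 at 6 h, against 14.13, 14.15 and 14.27 in cytokines with DMSO. All arrays with BRD0476 lay above all arrays without it. The rise was 0.23 ± 0.060 (adjusted p = 0.00326), to 117% of the level in cytokines with DMSO (95% interval 108% to 128%). It was 0.27 without the 3 arrays that stood apart (adjusted p = 0.00159). The change was 0.15 with them as the only arrays of their groups. With BRD0476, the cytokine change of Ins2 was -0.0022 ± 0.060 (adjusted p = 0.989), and the interaction was 0.22 ± 0.085 (adjusted p = 0.0475). The interaction call was not stable. With 1 array left out its adjusted p passed 0.05 in 9 of 12 cases, up to 0.13 without replicate 3 of BRD0476 alone, and it was 0.0628 with the replicate number as a block.

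Pcsk2 had 11.21, 11.25 and 11.20 in cytokines with BRD0476 at 6 h, against 11.67, 11.59 and 11.28 in cytokines with DMSO. The groups did not overlap, but the array of cytokines with DMSO that stood apart lay close to the group with BRD0476. The convertase fell by 0.29 ± 0.10 (adjusted p = 0.0224), to 81.7% of the level in cytokines with DMSO. It fell by 0.41 without the 3 arrays that stood apart (adjusted p = 0.000414). The change was -0.056 with them as the only arrays of their groups. With 1 of the other arrays left out the adjusted p reached 0.13, without replicate 1 of cytokines with DMSO, 0.0859 without replicate 2, and 0.0554 and 0.0573 without replicates 1 and 3 of cytokines with BRD0476.

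Scg5 had 13.17, 13.12 and 13.12 in cytokines with BRD0476 at 6 h, against 13.01, 12.98 and 13.05 in cytokines with DMSO, a change of 0.12 ± 0.058 (adjusted p = 0.103). The arrays did not overlap, as was also the case for Ins1 and Chgb, yet the difference missed the threshold. Chga changed by 0.040 ± 0.068 (adjusted p = 0.678), with a 95% interval of -0.10 to 0.18, Chgb by 0.097 ± 0.056 (adjusted p = 0.18), Cpe by 0.021 ± 0.055 (adjusted p = 0.792) and Ins1 by 0.072 ± 0.052 (adjusted p = 0.285). Over the 8 genes the interaction at 6 h was called higher for 2, Iapp and Ins2, and lower for 0, where 18.8% of all genes were called higher and 14.4% lower. For Scg5 it was 0.15 ± 0.083 (adjusted p = 0.189), for Chga 0.035 ± 0.096 (adjusted p = 0.828) and for Pcsk2 -0.36 ± 0.14 (adjusted p = 0.0603), the last at 0.00205 without the arrays that stood apart. Leaving out replicate 2 of DMSO alone at 6 h brought the Scg5 interaction to 0.21 (adjusted p = 0.0495).

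The chaperone gene Scg5 and Chga were lower with cytokines also when BRD0476 was present. Against BRD0476 alone at 6 h, 2 of the 8 genes fell and 0 rose, where 10.7% of all genes fell and 10.3% rose. Scg5 had 13.17, 13.12 and 13.12 in cytokines with BRD0476, against 13.38, 13.40 and 13.34 in BRD0476 alone, and fell by 0.24 ± 0.058 (adjusted p = 0.00436). Chga had 13.50, 13.55 and 13.52 in cytokines with BRD0476, against 13.72, 13.76 and 13.78 in BRD0476 alone, and fell by 0.23 ± 0.068 (adjusted p = 0.017). In both genes the groups were well apart. The Chga call was lost without replicate 3 of BRD0476 alone (adjusted p = 0.0625) and without replicate 1 of cytokines with BRD0476 (adjusted p = 0.0578).

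After 12 h of cytokines in DMSO, Scg5 and Iapp were the genes of the 8 that fell by the same test: 2 fell and 0 rose, where 29.9% of all genes fell and 16.0% rose. Scg5 had 13.01, 12.93 and 13.08 in cytokines with DMSO, against 13.32, 13.28 and 13.37 in DMSO alone, and fell by 0.32 ± 0.058 (adjusted p = 0.00012). Of the 85 bright genes 3 had a lower change than Scg5. Its fall differed from that at 6 h by 0.070 ± 0.083 (adjusted p = 0.602). Iapp had 13.78, 13.75 and 13.85 in cytokines with DMSO, against 13.93, 13.95 and 13.92 in DMSO alone, and fell by 0.14 ± 0.047 (adjusted p = 0.0189), to 90.7% of the level in DMSO alone. That call was lost without replicate 1 or 2 of cytokines with DMSO (adjusted p = 0.0503 and 0.0797) or replicate 2 of DMSO alone (0.0675). It was also lost with arrays centred on their medians (0.0824). With the 3 arrays apart as the only ones of their groups the change was -0.085.

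The amylin fall was smaller at 12 h than at 6 h. The cytokine change of Iapp at 12 h minus that at 6 h was 0.29 ± 0.067 (adjusted p = 0.00221), and 1 of the 8 genes was called higher and 0 lower in that comparison, where 11.8% of all genes were higher and 16.9% lower. Ins2 had 14.31, 14.37 and 14.43 in cytokines with DMSO at 12 h, against 14.45, 14.45 and 14.37 in DMSO alone, a change of -0.054 ± 0.060 (adjusted p = 0.505), and its 12 h minus 6 h difference was 0.17 ± 0.085 (adjusted p = 0.144), called at 0.23 without replicate 2 of DMSO alone at 6 h (adjusted p = 0.0472). Chga had 13.60, 13.66 and 13.49 in cytokines with DMSO at 12 h, against 13.79, 13.77 and 13.63 in DMSO alone, and changed by -0.15 ± 0.068 (adjusted p = 0.0821), with an adjusted p of 0.0386 once replicate 3 of DMSO alone was left out. Its arrays overlapped through that replicate. Ins1, Cpe and Chgb changed by -0.014, -0.056 and -0.020, with adjusted p of 0.859, 0.438 and 0.81, and of these Cpe had arrays that did not overlap.

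Pcsk2 at 12 h was split by array once more, with 11.56, 11.65 and 11.31 in cytokines with DMSO, against 11.28, 11.26 and 11.35 in DMSO alone. Replicates 1 and 2 of the cytokine group lay above all arrays of DMSO alone, and replicate 3, the array that stood apart, lay among them. The change was 0.21 ± 0.10 (adjusted p = 0.094). Without the arrays that stood apart Pcsk2 rose by 0.31 (adjusted p = 0.00403), and with them alone the change was 0.015 (adjusted p = 0.934).

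**Figure D3:**
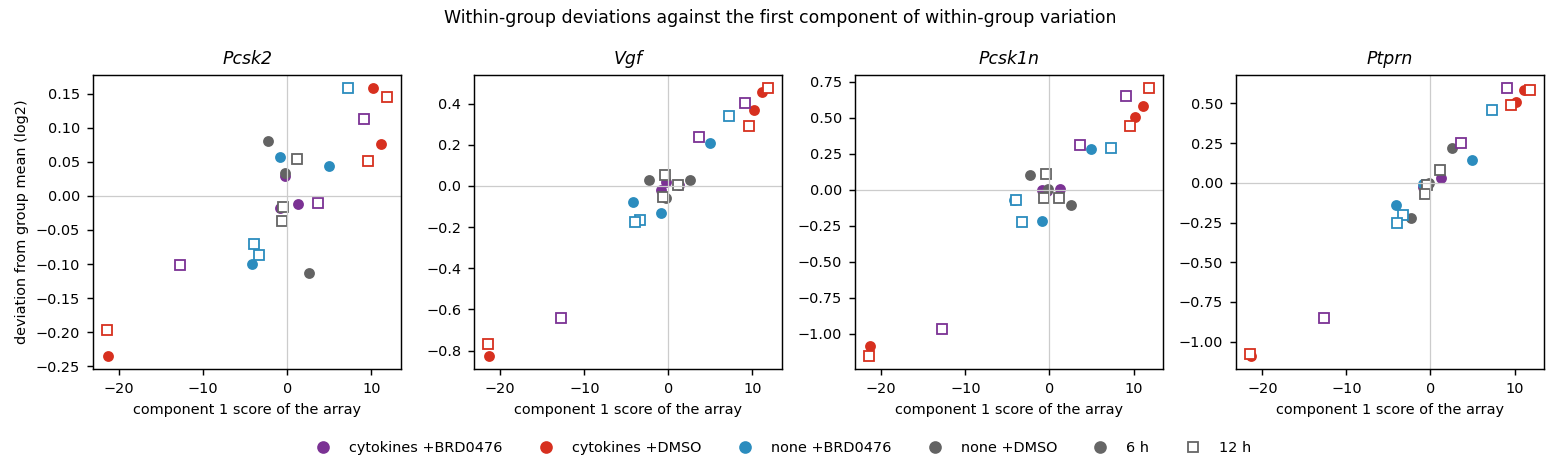
Deviation of each array from its group mean (log2, vertical axis) against its score on the first within-group component (no unit, horizontal axis) for Pcsk2, Vgf, Pcsk1n and Ptprn, with filled circles for 6 h and open squares for 12 h. The 2 arrays near -21 are replicate 3 of cytokines with DMSO at both times, the array near -13 is replicate 1 of cytokines with BRD0476 at 12 h, and Vgf, Pcsk1n and Ptprn are lowest in these 3, Pcsk2 in the first 2.

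The deviations of Pcsk2 from its group means followed the component that set these arrays apart more closely than those of the other 7 genes, with Pearson's r of 0.86 over 24 arrays. The coefficient was -0.66 for Ins2, -0.54 for Scg5, -0.48 for Iapp, -0.47 for Ins1, 0.45 for Chga, -0.29 for Cpe and -0.20 for Chgb. These are descriptions, since all genes share the same arrays. Among 40 other granule genes, the coefficient was over 0.5 for 16, under -0.5 for 3 and between for 21, with a median of 0.24. The highest included 0.98 for Vgf, a granule peptide precursor, 0.97 for Pcsk1n, the inhibitor of the Pcsk1 enzyme, and 0.99 for Ptprn, a membrane protein of the granule.

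BRD0476 with cytokines at 12 h changed 0 of the 8 genes by the limma test, where 26.9% of all genes and 10.6% of the 85 bright genes were called. Of the 8, 1, Iapp, had an unadjusted p under 0.05. Iapp had 13.91, 13.92 and 13.89 in cytokines with BRD0476, against 13.78, 13.75 and 13.85 in cytokines with DMSO, a change of 0.11 ± 0.047 (adjusted p = 0.0881), and the groups did not overlap. The change was past the threshold with array weights (adjusted p = 0.0444), with dim genes left out (0.0376) and with an intensity trend and robust prior (0.00774). The BRD0476 change of Iapp at 12 h minus that at 6 h was -0.25 ± 0.067 (adjusted p = 0.0094), 1 gene called lower and 0 higher where 13.2% of all genes were lower and 11.9% higher. Its adjusted p was 0.0811 with the arrays apart kept alone and 0.0583 in a fit of the compared arrays alone. Scg5 changed by 0.10 ± 0.058 (adjusted p = 0.217), and Pcsk2 by -0.018 ± 0.10 (adjusted p = 0.928). At 12 h the interaction was called for 0 of the 8 genes, and 0 had an unadjusted p under 0.05. Of all genes 15.3% were called, and of the 85 bright genes 5.88%.

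Against BRD0476 alone at 12 h, cytokines with BRD0476 lowered 1 of the 8 genes, Scg5, and raised 0, where 18.5% of all genes fell and 9.19% rose. Scg5 had 13.16, 13.13 and 13.05 in cytokines with BRD0476, against 13.32, 13.28 and 13.30 in BRD0476 alone, and fell by 0.19 ± 0.058 (adjusted p = 0.0189). All its cytokine arrays lay lower. The call was lost without replicate 3 of cytokines with BRD0476 (adjusted p = 0.0985) and without replicate 1 of BRD0476 alone (0.0656). With the 3 arrays apart as the only ones of their groups the change was -0.14. Iapp had 13.91, 13.92 and 13.89 in cytokines with BRD0476, against 14.03, 14.03 and 13.96 in BRD0476 alone, a change of -0.10 ± 0.047 (adjusted p = 0.112) with no overlap.

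BRD0476 alone changed 0 of the 8 genes at 6 h and 0 at 12 h by the limma test, and 0 of the 8 had an unadjusted p under 0.05 at either time. At 6 h and 12 h, 3.53% and 4.66% of all genes were called, and 1.18% and 0% of the 85 bright genes. The changes of Iapp were -0.00015 ± 0.047 at 6 h and 0.076 ± 0.047 at 12 h (adjusted p = 1 and 0.498). For Scg5 they were -0.026 ± 0.058 and -0.025 ± 0.058. In DMSO alone, 12 h against 6 h changed 0 of the 8 genes, with 0 at an unadjusted p under 0.05. Of all genes 1.67% were called, and of the 85 bright genes 2.35%.

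Ordered by group mean, Scg5 was lower in all 4 cytokine groups, at 13.01 to 13.13, than in all 4 groups without cytokines, at 13.30 to 13.40, and the gap of 0.17 between the nearest pair was beyond the spread between arrays. The group means of Chga had the same order, with 13.48 to 13.61 in the cytokine groups and 13.71 to 13.75 in the groups without. Its single arrays crossed, however: replicate 2 of DMSO alone at 6 h, at 13.59, lay below replicate 2 of cytokines with DMSO at 12 h, at 13.66. In Iapp the lowest group was cytokines with DMSO at 6 h, at 13.54 ± 0.015 (SD, n = 3), the next was cytokines with DMSO at 12 h, at 13.79 ± 0.050, and the other 6 lay between 13.90 and 14.01 with neighbours that did not differ beyond their spread. In Ins2 the lowest group, cytokines with DMSO at 6 h at 14.18 ± 0.072, was apart from the other 7, which lay between 14.37 and 14.42. Pcsk2 was lowest in cytokines with BRD0476 at 6 h, at 11.22 ± 0.026, with no overlap with the next group although the gap of 0.074 was smaller than the pooled SD of 0.12, and the other 7 groups lay between 11.30 and 11.51. No neighbours in the order of Ins1, Cpe or Chgb differed beyond their spread.

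Other genes of the granule and its cargo responded in both directions. Of 40 measured, 9 rose and 16 fell with cytokines in DMSO at 6 h, with a median of -0.12 against 0.0039 over all genes, and 8 rose and 18 fell at 12 h. Of all genes 24.3% rose and 27.4% fell at 6 h, and 16.0% rose and 29.9% fell at 12 h. Without the arrays that stood apart the counts were 12 and 17 at 6 h and 10 and 17 at 12 h, and with those arrays alone they were 5 and 18, and 4 and 19. Bace2, a beta-secretase of the beta cell, rose by 0.94 (adjusted p = 1.16e-10), Pcsk5, another proprotein convertase, rose by 1.02 (adjusted p = 3.6e-11), and Cltrn, collectrin, fell to 43.4% of the level in DMSO alone (adjusted p = 1.65e-09) at 6 h. Of the 2 other Pcsk5 probe sets 1 was called the same way. At 12 h the largest rises of the list were in genes split by the arrays that stood apart. Pcsk1n, the inhibitor of the Pcsk1 enzyme, rose by 1.10 with all arrays (adjusted p = 0.0445) and by 1.67 without those arrays, and changed by -0.057 with them alone (adjusted p = 0.844). Vgf rose by 1.25 with all arrays (adjusted p = 0.00204), by 1.64 without them and by 0.49 with them alone (adjusted p = 0.0319). With BRD0476 in cytokine-treated cells, 12 rose and 6 fell at 6 h, where 24.7% of all genes rose and 19.4% fell, and 7 rose and 2 fell at 12 h, where 16.3% rose and 10.6% fell. Without the arrays that stood apart 11 rose and 9 fell at 6 h and 5 rose and 1 fell at 12 h, and with them alone 15 rose and 2 fell at 6 h and 6 rose and 0 fell at 12 h. Pam, the enzyme that amidates amylin, rose by 0.58 at 6 h (adjusted p = 1.14e-07) through its brightest probe set. Of the 2 other Pam probe sets 0 were called.

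Factors that act on the insulin gene included several that fell. Of 16 measured, 2 rose and 8 fell with cytokines in DMSO at 6 h and 1 rose and 9 fell at 12 h, where the shares of all genes were 24.3% and 27.4% at 6 h and 16.0% and 29.9% at 12 h. Nkx6-1, a homeodomain factor of beta cells, fell by 1.52 at 6 h and fell by 1.76 at 12 h (adjusted p = 2.97e-10 and 3.87e-11). Against BRD0476 alone, cytokines with BRD0476 lowered Nkx6-1 by 1.55 at 6 h and by 0.46 at 12 h (adjusted p = 1.18e-09 and 0.004). Isl1, which binds insulin gene A boxes, fell by 1.17 with cytokines in DMSO at 6 h (adjusted p = 3.89e-07), but its 1 other probe set was not called. Mafa, an activator of insulin transcription, fell by 0.98 with cytokines in DMSO at 12 h (adjusted p = 1.08e-10). In the other direction, Cebpb of the same list rose by 1.37 with cytokines in DMSO at 6 h (adjusted p = 7.52e-14). With BRD0476 in cytokine-treated cells, 7 rose and 4 fell at 6 h and 7 rose and 0 fell at 12 h, where the shares of all genes were 24.7% and 19.4% at 6 h and 16.3% and 10.6% at 12 h. Mafa rose by 0.70 and by 0.83 (adjusted p = 2.68e-08 and 4.42e-09), whereas at 6 h Cebpb fell by 0.90 and Mlxipl by 0.77 (adjusted p = 1.67e-10 and 3.24e-07). With the arrays that stood apart alone, 6 rose and 2 fell at 6 h, and with cytokines in DMSO at 12 h 0 rose and 6 fell.

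Genes that fold proinsulin in the endoplasmic reticulum were counted next. Of 29 measured, 8 rose and 7 fell with cytokines in DMSO at 6 h, and 2 rose and 15 fell at 12 h, where the shares of all genes were 24.3% and 27.4% at 6 h and 16.0% and 29.9% at 12 h. The counts at 6 h were near those shares. Ero1b, an oxidase that forms disulfides in proinsulin, rose by 0.86 at 6 h (adjusted p = 1.2e-09), but its 1 other probe set was not called. Dnajb9, a chaperone partner, rose by 1.46 at 6 h (adjusted p = 2.34e-08) and fell by 0.62 at 12 h (adjusted p = 0.00136). With BRD0476 in cytokine-treated cells, 16 rose and 2 fell at 6 h, and 16 rose and 0 fell at 12 h, where the shares of all genes were 24.7% and 19.4% at 6 h and 16.3% and 10.6% at 12 h. Without the arrays that stood apart 18 rose and 4 fell at 6 h. With BRD0476 alone, 9 of the 29 rose and 0 fell at 6 h, where 1.68% of all genes rose and 1.85% fell.

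Genes of zinc transport and buffering were measured while Slc30a8 itself was not. Of 20 measured, 4 rose and 8 fell with cytokines in DMSO at 6 h, and 5 rose and 7 fell at 12 h, where the shares of all genes were 24.3% and 27.4% at 6 h and 16.0% and 29.9% at 12 h. Mt2A, a metallothionein that binds zinc, rose by 3.57 at 6 h (adjusted p = 3.87e-15), whereas Mt3, another metallothionein, fell by 1.92 (adjusted p = 1.83e-15) and Slc39a10, a zinc importer, fell by 1.66 (adjusted p = 1.92e-13). With BRD0476 in cytokine-treated cells at 6 h, 7 rose and 1 fell, where 24.7% of all genes rose and 19.4% fell. Slc30a4, a relative of Slc30a8, rose by 0.86 in that comparison (adjusted p = 2.31e-10), but its 1 other probe set was not called.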

How the data were processed

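Expression was measured on 24 Affymetrix arrays in 8 groups of 3. The deposited table holds linear intensity values per probe set that the authors made with RMA, per the submitters' processing notes; its version is not given in the sources used here. The largest value was 24853, array medians lay between 5.49 and 5.57 log2 units, and within-group correlations between 0.992 and 0.998. The number of arrays, 3 in a group, limits the precision.

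From the deposited intensities log2 values were taken. Of 31099 probe sets, 57 were controls, 20826 had 1 gene symbol and were used, and 436 had several and were left out. The probe set with the highest mean stood for each of 14217 genes. Group means were fitted with limma 3.58.1 (R 4.3.3) over all 24 arrays, with 13 comparisons and Benjamini-Hochberg adjustment over all genes, called at an adjusted p under 0.05. Promoters came from RefSeq (GRCr8) and were aligned with Biopython 1.88 under Python 3.11.15.

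The member genes and gene lists were chosen with earlier results of these data known. The text names the members and, in each other list and comparison described, genes from the up to 4 called with the largest absolute change. Genes with a like pattern were to be named for members whose group means had an SD of at least 0.25, which none reached. Alternatives changed the normalization, filter, probe-set rule, variance model, arrays fitted and arrays left out.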

Additional observations from a re-analysis of the deposited data

Results flagged for a closer look

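Effects of the same kind differed between treatments or times in 4 cases by the test of the difference itself (limma, Benjamini-Hochberg over all genes). The cytokine change at 6 h was higher with BRD0476 than with DMSO by 0.36 for Iapp (adjusted p = 0.000253) and by 0.22 for Ins2 (adjusted p = 0.0475). The Ins2 call was lost under 14 of 23 alternatives, where its adjusted p reached 0.362. For Iapp, the cytokine change in DMSO was 0.29 higher at 12 h than at 6 h (adjusted p = 0.00221), and the change with BRD0476 in cytokine-treated cells differed by -0.25 (adjusted p = 0.0094). The last 2 share the arrays of cytokines with DMSO, as do the first 2. What these differences come from was not tested.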

How the results depend on the processing

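Counts are of the 8 genes called. Against 4 for cytokines in DMSO at 6 h, a fit of the compared arrays alone gave 2, and the 3 arrays apart left out gave 5. Against 2 at 12 h, the compared arrays alone gave 1, as did arrays centred on medians. Array weights, quantile normalization, an intensity trend and robust prior, and the 3 arrays apart left out each gave 3. For BRD0476 in cytokines, 3 at 6 h became 2 with the compared arrays alone and 4 with an intensity trend and robust prior. With the 3 arrays alone, the 6 h changes of Ins2 and Pcsk2 shrank to 0.15 and -0.056, from 0.23 and -0.29. That of Iapp was at least 0.33 under every alternative. Counts with the 3 arrays alone are not given for every comparison. At 12 h, 0 became 1 with array weights, with dim genes left out and with an intensity trend and robust prior. For cytokines with BRD0476 at 6 h, 2 became 3 with array weights or the compared arrays alone. For cytokines with BRD0476 at 12 h, 1 became 2 with array weights, the trend or quantile normalization, and 0 with the compared arrays or the 3 arrays alone. The interaction at 6 h, 2 in all, was 4 with array weights and 1 with every probe set, the compared arrays alone or the 3 arrays alone. The cytokine difference between times, 1, became 2 with weights, trend or quantile normalization. That of BRD0476, 1, became 2 with trend, quantile normalization or the 3 arrays left out, and 0 with the compared arrays or the 3 arrays alone. DMSO alone over time, 0, became 1 with weights. The cause was not tested.

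Leaving out 1 array gave 1 to 3 calls for cytokines in DMSO at 12 h, 2 to 3 for BRD0476 in cytokines at 6 h, 1 to 2 for cytokines with BRD0476 at 6 h, 0 to 1 at 12 h, 1 to 3 for the interaction at 6 h, 1 to 2 for each difference between times, and the count with all arrays elsewhere. Over genes and comparisons, 789 such values kept their call, 20 lost it and 7 gained it, and of other alternatives 1035, 18 and 27; 0 called values changed sign.

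Of 84 correlations between deviations of same-numbered arrays (-0.48 to 0.72), 21 were over 0.1. All 3 were over 0.1 in 2 of 28 pairs of groups: cytokines with DMSO at 12 h and 6 h (0.42, 0.40 and 0.72), whose replicate 3 stood apart at both times, and cytokines with BRD0476 and DMSO alone at 6 h (0.11, 0.24 and 0.22). No comparison sets only those groups against each other, so the numbers were not taken as a pairing. With the replicate block the interaction at 6 h was called for 1 gene, not 2, since Ins2 reached 0.0628, and no other call of a member count moved by over 1.5 times. Over all genes, array weights gave 1123 calls for BRD0476 alone at 6 h against 502, 1929 at 12 h against 663, 6304 for cytokines with BRD0476 at 12 h against 3938, and 1545 for DMSO alone over time against 238. The compared arrays alone gave 2379 for BRD0476 in cytokines at 12 h against 3827, 108 for BRD0476 alone at 6 h against 502, and 97 for DMSO alone over time. The 3 arrays alone gave 2132 for cytokines with BRD0476 at 12 h and 1606 for the BRD0476 difference between times against 3559.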
